A study of Mus musculus with 9 samples.

Results

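The complement and coagulation genes of the mouse liver were followed across a regular diet, a high-fat diet, and that same diet given together with ginseng flower bud extract. The members were 47 listed gene symbols of complement components, clotting factors and fibrinolytic proteins, and each was read from the probe set that carries that symbol alone. Of the 47, 42 were measured in this way among 22180 genes tested. Masp2 and Klkb1 lie on probe sets shared with other symbols, and C3, Cfd and Cpb2 were not analysed here. Each of the 42 had a single such probe set.

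Liver total RNA was hybridised to whole-transcript microarrays in 9 samples, 3 for each group. The regular-diet group (RD) and the high-fat diet group (HFD) received vehicle by mouth, and the extract group (GFB) was fed the high-fat diet and received the extract at 500 mg/kg, with daily dosing over 12 weeks in each case. The mice were C57BL/6 per the growth protocol (C56BL/6J in the strain entry), 5 weeks old when the study began, and all livers were taken after an overnight fast. No group carried a transgene or deletion, their sex is not stated in the labels, and nothing there ties an array to its own mouse. The p-values therefore measure only how far these samples spread, which may be technical.

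Values are log2 expression, and array medians lay between 4.34 and 4.38. The median of the gene means was 4.74, used here as a reference level for dim signal, and 40 of the 42 members lay above it on every array. The exceptions were the plasminogen activator genes Plat (above it on 2 of 9 arrays) and Plau (7 of 9). All 11 measured hepatocyte markers, among them Alb and Ttr, lay above that level on every array. Their mean was 11.72 to 11.79 on the regular diet, 11.53 to 11.65 on the high-fat diet and 11.67 to 11.73 with extract. The mean was thus lowest on the high-fat diet, but the markers were split. Against the regular diet 5 of the 11 were higher, among them Alb (0.01) and Ttr (0.14). The other 6 were lower, among them Ass1 (-0.75) and Tat (-0.47). Cps1, a urea cycle enzyme gene, was the only one called (-0.66 ± 0.10 against the regular diet, limma adjusted p = 0.0224). Of 6 measured white adipose markers, 3, among them Adipoq and Lep, lay below the reference level on every array, while the mean of the list was 4.86 to 5.12, 5.34 to 5.47 and 5.29 to 5.39 in the same order of groups. Car3, which hepatocytes also express, was the only one called (1.93 ± 0.37 on the high-fat diet, limma adjusted p = 0.0412), and of the 6 markers 3 were higher and 3 lower. The part of these markers in the member values was not tested. In a bulk sample, fewer cells of a type and less RNA per cell cannot be told apart.

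Complement is a cascade of plasma proteases and binding proteins that tags and lyses microbes and clears debris, and it can be started by antibody and C1 (the classical route), by lectins that bind sugars (the lectin route) or by spontaneous turnover (the alternative route). Coagulation is a parallel protease cascade that ends in thrombin and a fibrin clot, which plasmin dissolves again. The hepatocyte is the main source of most proteins of both systems, while endothelial cells, macrophages and other cells supply a few, and several of the genes are acute-phase genes that respond to inflammatory cytokines.

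Promoter sequences are shown for 3 of the 5 members that rose on the high-fat diet (C4bp, F11 and Proz), and for C6 and C9, 2 of the terminal complement genes with a wide spread within the high-fat group. Each runs 5′ to 3′ from 250 bases before to 50 bases after the RefSeq start site in GRCm38.p6. Capitals mark matches, on either strand, to any of 5 short motifs. The letters GTTAAT are the core of the motif of the liver factor HNF1. The letters TTGCNNAA are a relaxed form of the C/EBP motif, and the element TTCNNNGAA is bound by STAT factors, which act in the acute phase. Many nuclear receptors bind the core AGGTCA. The last motif searched was the TATA box, with the letters TATAAA.
C4bp, chr1:130661569-130661868, - strand: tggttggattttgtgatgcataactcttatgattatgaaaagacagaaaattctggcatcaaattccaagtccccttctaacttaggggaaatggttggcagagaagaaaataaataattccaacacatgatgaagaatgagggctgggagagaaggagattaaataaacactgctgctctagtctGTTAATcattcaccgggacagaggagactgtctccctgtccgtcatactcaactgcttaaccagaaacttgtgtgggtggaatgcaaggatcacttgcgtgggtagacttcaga
F11, chr8:45261982-45262281, - strand: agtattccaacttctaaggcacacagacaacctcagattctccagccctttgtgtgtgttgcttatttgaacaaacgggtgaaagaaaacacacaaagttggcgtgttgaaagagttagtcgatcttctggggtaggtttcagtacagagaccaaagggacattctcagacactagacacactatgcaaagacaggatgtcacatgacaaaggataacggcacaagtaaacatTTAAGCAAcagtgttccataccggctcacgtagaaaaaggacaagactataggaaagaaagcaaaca
Proz, chr8:13060658-13060957, + strand: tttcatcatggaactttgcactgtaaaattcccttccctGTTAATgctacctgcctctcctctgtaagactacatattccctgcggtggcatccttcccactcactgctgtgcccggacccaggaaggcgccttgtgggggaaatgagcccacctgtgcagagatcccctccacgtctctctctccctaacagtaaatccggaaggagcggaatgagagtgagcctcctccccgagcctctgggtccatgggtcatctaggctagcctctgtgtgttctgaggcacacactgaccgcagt
C6, chr15:4726960-4727259, + strand: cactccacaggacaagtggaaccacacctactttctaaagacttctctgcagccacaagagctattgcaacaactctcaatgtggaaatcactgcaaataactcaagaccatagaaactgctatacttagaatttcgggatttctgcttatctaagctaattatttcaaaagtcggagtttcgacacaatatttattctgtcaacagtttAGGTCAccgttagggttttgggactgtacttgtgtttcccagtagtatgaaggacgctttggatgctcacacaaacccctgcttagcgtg
C9, chr15:6445096-6445395, + strand: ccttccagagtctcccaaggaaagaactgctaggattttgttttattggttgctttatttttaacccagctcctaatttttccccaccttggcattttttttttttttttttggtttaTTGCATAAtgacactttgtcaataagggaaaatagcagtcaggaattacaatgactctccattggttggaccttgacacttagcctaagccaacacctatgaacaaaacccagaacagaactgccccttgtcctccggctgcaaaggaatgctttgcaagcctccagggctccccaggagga

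Each of these 5 windows held 1 match, so none overlapped. GTTAAT began at position -64 from the start site in C4bp and at -211 in Proz. The C/EBP motif began at -17 in F11, on the minus strand, and at -132 in C9, and AGGTCA at -40 in C6. The RefSeq table held a promoter for 30 of the 42 measured members. GTTAAT was present in 11 of those 30 (36.7%) and in 7.1% of all 32851 promoters of the same length, and AGGTCA in 11 of 30 (36.7%) and 16.3%. The 11 members with GTTAAT were C4bp, F13b, Hc, F2, Fga, Fgb, C8b, C8a, Proz, Vtn and Cfp, which span all levels of response described below. TTGCNNAA was present in 7 of 30 (23.3%, against 10.8% of all promoters), TTCNNNGAA in 6 (20.0%, against 8.3%) and TATAAA in 5 (16.7%, against 13.6%). A match is a description of the letters and not a binding site.

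Between the regular and high-fat diets, both with vehicle, the comparison shows the change with diet. F11, C4bp, Masp1, C4b and Proz rose, none of the 42 members fell, and 33 were higher and 9 lower, with 50.1% of all genes higher. The 5 genes have different roles: Masp1 encodes a protease of the lectin route, C4b complement component C4, C4bp an inhibitor that binds activated C4, F11 coagulation factor XI, and Proz protein Z, a cofactor for the inhibition of activated factor X. The 5 are 11.9% of the members, where 0.821% of all genes tested rose, 0.518% fell and 1.34% changed in either direction (limma, adjusted p under 0.05 over all genes). Among the brighter genes, those with a mean above 4.74, 3.06% rose when they were fitted alone. The median log2 fold change was 0.13 over the members and 6.79e-05 over all genes. At an adjusted p under 0.10 there were 6 members, Mbl2 in addition, with 2.75% of all genes. At an unadjusted p under 0.05 there were 17 of 42 members, with 13.3% of all genes and 21.1% of the brighter genes. Members and role groups were chosen with earlier results of these data known. The shares here and below therefore describe the list and are no independent support for an excess.

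**Figure D1:**
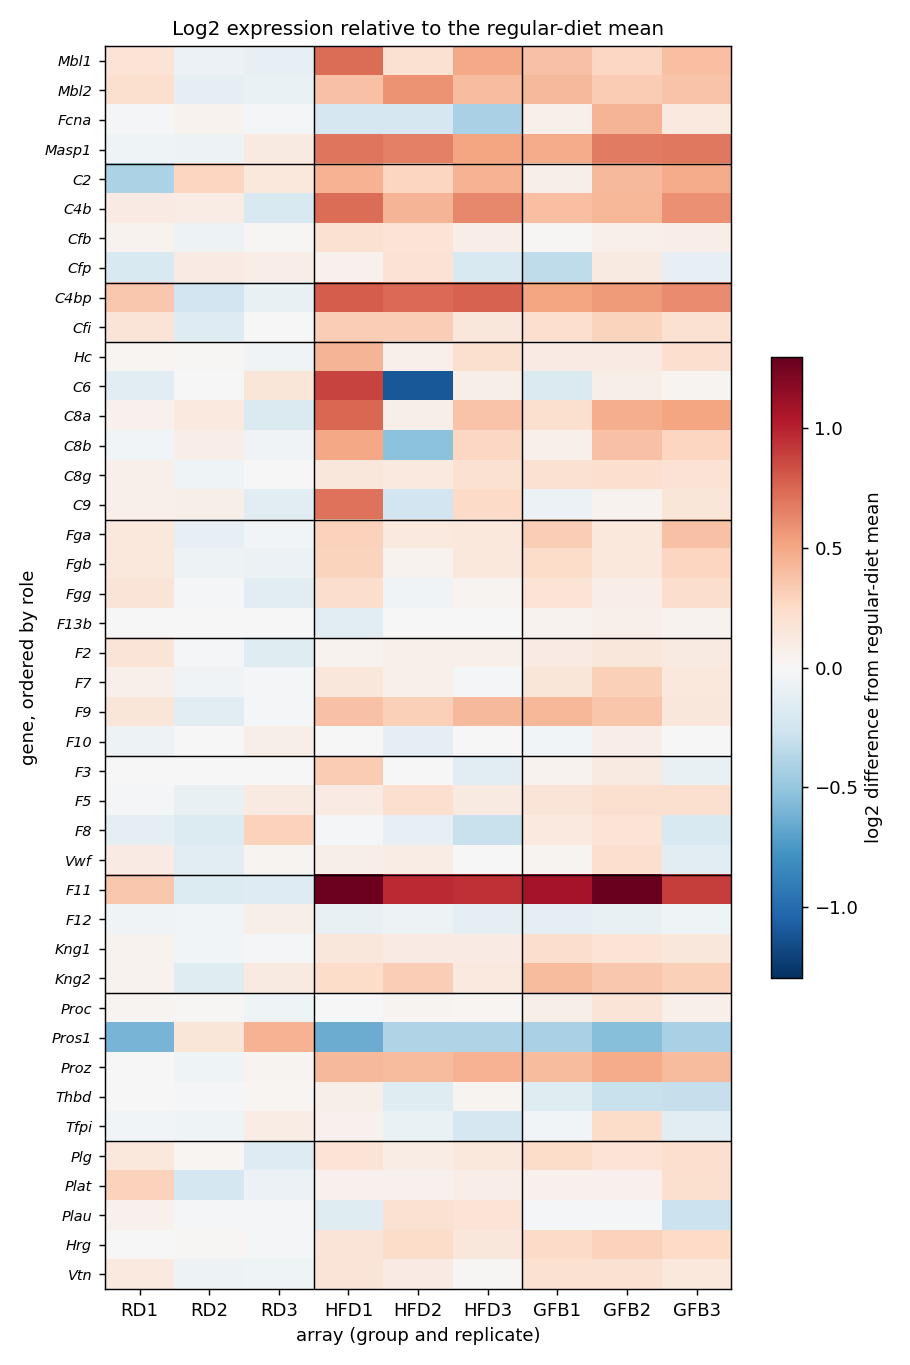
Log2 expression of the 42 members on each of the 9 arrays as the difference from the regular-diet mean of the same gene (colour; red is higher), with genes in rows ordered by role and groups separated by vertical lines. F11, C4bp, Masp1, C4b and Proz are red on all 6 arrays of the high-fat-fed groups, and C6 spans 10.22 to 8.24 on the log2 scale within the high-fat diet group.

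F11, the factor that activates factor IX in the intrinsic route, read 8.59, 8.06 and 8.07 on the regular diet, 9.51, 9.21 and 9.18 on the high-fat diet, and 9.32, 9.59 and 9.14 with extract. Every array of both high-fat-fed groups lay above every regular-diet array. F11 rose 2.09-fold on the high-fat diet, a log2 fold change of 1.06 ± 0.17 (SE, n = 3 per group; limma adjusted p = 0.0225), the largest difference among the members. C4bp read 10.80, 10.21 and 10.37 on the regular diet, 11.25, 11.20 and 11.22 on the high-fat diet, and 10.97, 11.01 and 11.07 with extract. It rose 1.70-fold (0.76 ± 0.13, limma adjusted p = 0.0310), and regular-diet replicate 1 stood closest to the other groups for both genes.

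Masp1 read 8.76, 8.76 and 8.94 on the regular diet, 9.52, 9.48 and 9.33 on the high-fat diet, and 9.30, 9.49 and 9.51 with extract. The regular-diet arrays were separate from the other 6, and the 6 overlapped each other. Masp1 rose 1.54-fold (0.62 ± 0.09, limma adjusted p = 0.0163). Proz read 10.25, 10.19 and 10.28 on the regular diet, 10.66, 10.65 and 10.69 on the high-fat diet, and 10.65, 10.73 and 10.65 with extract. The spread within each group was small, and Proz rose 1.35-fold (0.43 ± 0.06, limma adjusted p = 0.0168). C4b read 10.33, 10.31 and 10.02 on the regular diet, 10.94, 10.66 and 10.85 on the high-fat diet, and 10.61, 10.65 and 10.81 with extract. It rose 1.51-fold (0.60 ± 0.11, limma adjusted p = 0.0394), although the near-identical paralog C4a makes the assignment of its signal uncertain.

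**Figure D2:**
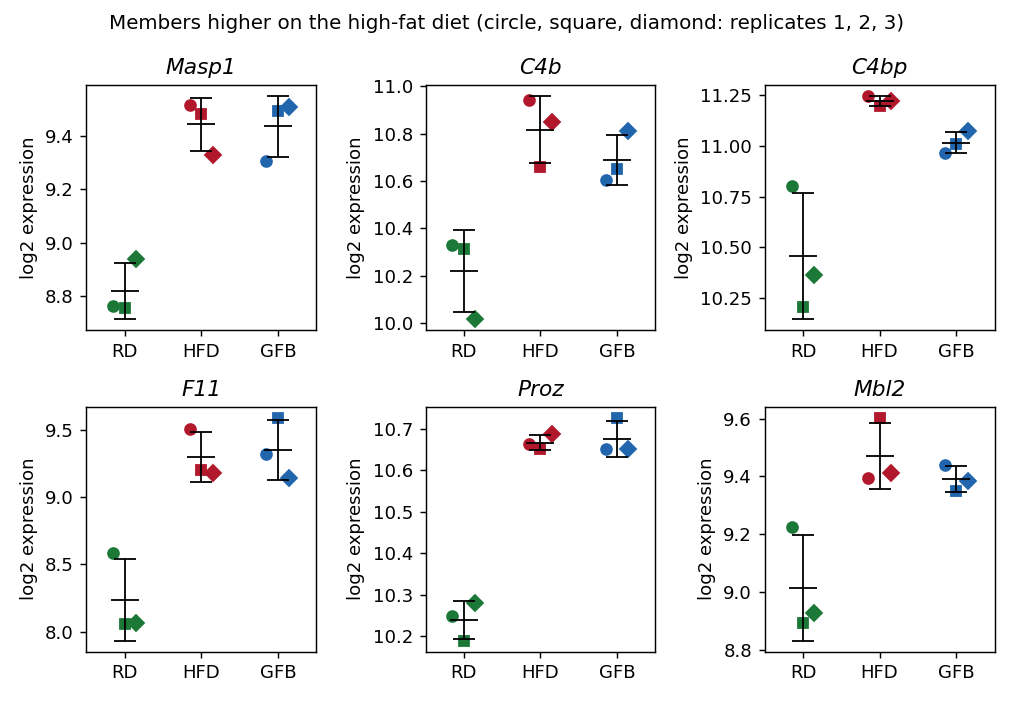
Log2 expression of the 5 members that rose on the high-fat diet and of Mbl2, which did not pass, in the regular-diet (RD), high-fat diet (HFD) and extract (GFB) groups; points are arrays, and bars are the mean and SD of 3. For every gene drawn the 3 high-fat diet arrays lie above the 3 regular-diet arrays, for example 9.18 to 9.51 against 8.06 to 8.59 for F11.

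Each of the 5 rises kept its direction when single arrays were left out. The sizes ran from 0.96 to 1.24 for F11 and from 0.64 to 0.94 for C4bp. They ran from 0.58 to 0.68 for Masp1, 0.50 to 0.68 for C4b and 0.40 to 0.45 for Proz. The calls did not hold. None of the 5 passed without regular-diet replicate 2, high-fat diet replicate 1 or high-fat diet replicate 2, nor in a limma fit of only the 6 arrays compared, where 11, 10, 14 and 12 members had an unadjusted p under 0.05, with 11.3%, 11.8%, 11.5% and 11.9% of all genes. Masp1 was the only member to pass without high-fat diet replicate 3, and Masp1 and Proz were the only members without regular-diet replicate 3. F11, Masp1 and Proz passed without any 1 extract array. C4b also did not pass after a second quantile normalization (adjusted p = 0.056, range 0.0170 to 0.127 over its alternatives).

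Of the 4 measured lectin-route members, all 4 had non-overlapping high-fat and regular-diet arrays, 3 higher and 1 lower, and Masp1 was the only one called. Over all genes, 7.93% were higher and 7.86% lower without overlap. The mannose-binding lectin genes Mbl1 and Mbl2, whose products recognise microbial sugars and carry the MASP proteases, had log2 fold changes of 0.47 ± 0.13 and 0.45 ± 0.10 and did not pass (limma adjusted p = 0.147 and 0.0732). Mbl2 read 9.23, 8.89 and 8.93 on the regular diet and 9.40, 9.60 and 9.41 on the high-fat diet, and it passed without regular-diet replicate 1 (0.56, adjusted p = 0.0215). Fcna, which encodes ficolin A, another sugar-binding recognition protein, was the member that was lower, at -0.29 ± 0.11 (limma adjusted p = 0.278).

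Among the other early complement genes, C2, the protease that joins C4 in the classical convertase, had a log2 fold change of 0.40 ± 0.17, and Cfb, its alternative-route counterpart, of 0.16 ± 0.07 (limma adjusted p = 0.374 and 0.364). Cfp, which encodes the stabiliser properdin and is expressed mainly by myeloid cells, stood at 0.02 ± 0.14 with overlapping groups. Cfi, the protease that cleaves C4b and C3b, stood at 0.26 ± 0.10 (limma adjusted p = 0.274), beside the called rise of C4bp, its cofactor. C2 and Cfb are direct neighbours in the genome and C4b lies 5 protein-coding genes away. Of these 3, C4b alone was called. The 95% interval of C4b (0.35 to 0.85) overlapped that of C2 (0.0014 to 0.79) and shared no value with that of Cfb (0.0032 to 0.31), although the differences between genes were not tested.

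The 6 terminal genes encode subunits of the membrane attack complex, though not C7, which was not a listed member. None of the 6 passed on the high-fat diet (smallest limma adjusted p = 0.319, for Hc, the gene of C5). Hc read 11.22, 11.22 and 11.15 on the regular diet, 11.64, 11.27 and 11.41 on the high-fat diet, and 11.30, 11.30 and 11.42 with extract, higher without overlap (0.24 ± 0.10). Their most visible feature was the spread within the high-fat diet group. C6 read 9.20, 9.34 and 9.498 on the regular diet, 10.22, 8.24 and 9.42 on the high-fat diet, and 9.15, 9.42 and 9.38 with extract. High-fat diet replicate 1 was its highest array and replicate 2 its lowest, a range of 1.98. The SD of C6 within that group was 1.00, exceeded by 0.108% of all genes. C8b, whose product binds the nascent complex, read 11.03, 11.15 and 11.02, then 11.56, 10.53 and 11.33, then 11.13, 11.45 and 11.35 in the same order of groups. C9, which forms the pore, read 10.40, 10.41 and 10.19, then 11.04, 10.09 and 10.58, then 10.26, 10.38 and 10.495. The high-fat SDs of C8b (0.54) and C9 (0.48) were exceeded by 0.775% and 1.24% of all genes, and that of C8a (0.34) by 4.44%.

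Within the high-fat diet group, 5 of the 6 terminal genes (Hc, C6, C8a, C8b and C9) ran in the same order, replicate 1 highest, replicate 3 next and replicate 2 lowest, as did 14 of 42 members (33.3%) and 14.3% of all genes. This order was noticed after the values were seen. C8g, which encodes the gamma subunit of C8, did not follow it (10.67, 10.65 and 10.72). The log2 fold change of C6 on the high-fat diet was -0.05 ± 0.39 over all arrays, -0.51 without high-fat diet replicate 1 and 0.48 without replicate 2, and that of C9 was 0.24 ± 0.20, 0.0030 and 0.48. The value for C6 therefore rests on which high-fat array is counted. Genes outside the list, chosen after their values were seen, differed between the same arrays. Cyp7b1, an oxysterol hydroxylase gene with male-biased expression in mouse liver, read 10.80, 8.27 and 9.998 in high-fat diet replicates 1 to 3, 8.80, 10.15 and 9.81 on the regular diet and 9.33, 9.76 and 10.20 with extract, so it also spread on the regular diet. C4a, the androgen-dependent C4 paralog, read 7.47, 4.56 and 6.11 on the high-fat diet, 4.47, 5.26 and 4.60 on the regular diet and 4.92, 4.25 and 5.99 with extract. Cyp2b9, a cytochrome P450 gene with female-biased expression, read 6.52, 11.37 and 10.42 on the high-fat diet, the reverse order, with 4.997, 3.47 and 3.56 on the regular diet and 9.08, 9.14 and 7.30 with extract (5.43 ± 1.10 between the diets, limma adjusted p = 0.0535). What part these differences between arrays have in the terminal gene values was not tested.

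**Figure D3:**
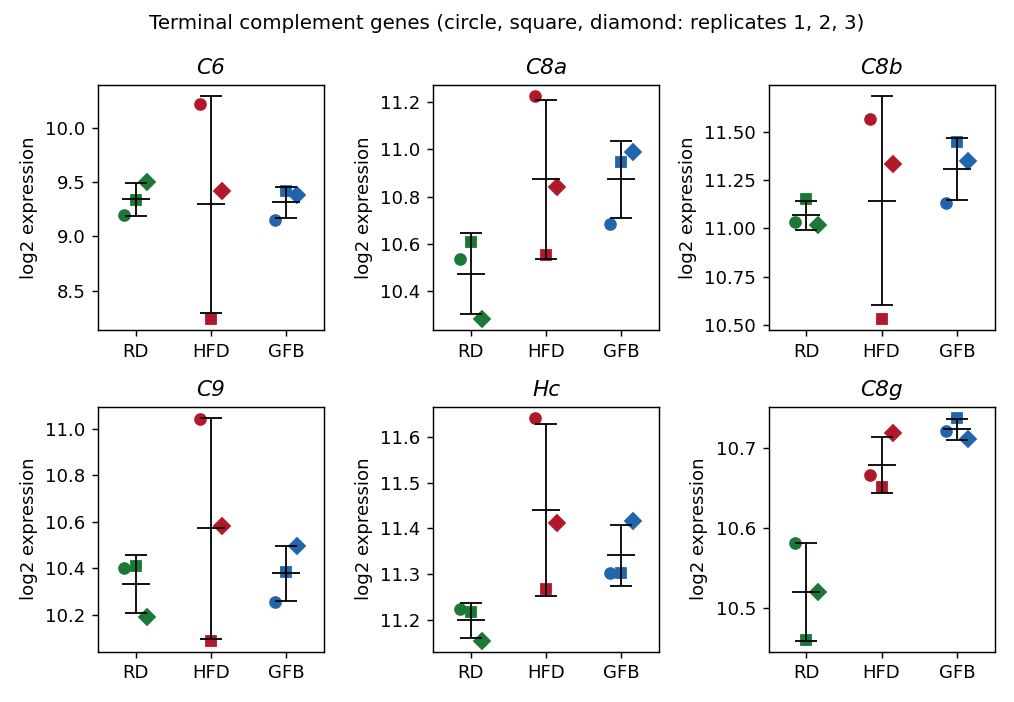
Log2 expression of the 6 terminal complement genes in the regular-diet (RD), high-fat diet (HFD) and extract (GFB) groups; points are arrays (circle, square and diamond for replicates 1, 2 and 3), and bars are the mean and SD of 3. In the high-fat diet group the circle is highest and the square lowest for C6, C8a, C8b, C9 and Hc, from 10.22 to 8.24 for C6, whereas C8g spans 10.65 to 10.72.

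The chains of fibrinogen, the precursor of fibrin, are encoded by Fga, Fgb and Fgg, which lie side by side on chromosome 3. Their log2 fold changes on the high-fat diet were 0.19 ± 0.10, 0.16 ± 0.09 and 0.07 ± 0.10, and none passed (smallest limma adjusted p = 0.457). Fga read 11.42, 11.18 and 11.25 on the regular diet, 11.58, 11.40 and 11.42 on the high-fat diet, and 11.60, 11.41 and 11.66 with extract. Replicate 1 was the highest regular-diet array and the highest high-fat diet array for all 3 chains, and the groups overlapped for each. F13b, the carrier subunit of the fibrin cross-linking enzyme, stood at -0.05 ± 0.07 with a 95% interval of -0.19 to 0.10.

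Of the vitamin K dependent procoagulant genes, F9 was higher without overlap (10.41, 10.12 and 10.23 on the regular diet against 10.63, 10.56 and 10.67 on the high-fat diet, and 10.68, 10.62 and 10.395 with extract) and did not pass (0.37 ± 0.10, limma adjusted p = 0.137). F2, which encodes prothrombin, F7 and F10 stood at 0.06, 0.07 and -0.05, with 95% intervals that reached no further than 0.25 above or -0.21 below 0. F7, F10 and Proz are direct neighbours on chromosome 8. Proz rose while its neighbours did not pass, and the 95% interval of Proz (0.28 to 0.57) shared no value with that of F7 (-0.11 to 0.24) or F10 (-0.21 to 0.12). F11 lies next to Klkb1, the prekallikrein gene, whose probe set carries several symbols and was not tested.

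The cofactor gene F5 read 10.95, 10.87 and 11.08 on the regular diet, 11.07, 11.19 and 11.08 on the high-fat diet, and 11.13, 11.17 and 11.18 with extract. It had a log2 fold change of 0.15 ± 0.08 with overlapping groups. F3, the tissue factor gene that starts clotting, F8 and Vwf, the last 2 made largely by endothelial cells, stood between -0.14 and 0.06. In the contact system, which starts clotting on surfaces and releases bradykinin, F11 was the only member called. The kininogen genes Kng1 and Kng2, near-identical paralogs whose signal may not be told apart, stood at 0.12 ± 0.06 and 0.23 ± 0.09, and F12 at -0.09 ± 0.07, each without overlap between the groups and none passing (smallest limma adjusted p of the 3, 0.309).

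Of the 5 anticoagulant genes, Proz alone was called. Pros1, which encodes protein S, a cofactor of activated protein C, read 7.70, 8.45 and 8.75 on the regular diet, 7.66, 7.91 and 7.91 on the high-fat diet, and 7.88, 7.74 and 7.87 with extract. Regular-diet replicate 1 lay among the arrays of the other groups. The log2 fold change was -0.47 ± 0.22 (limma adjusted p = 0.410), and without regular-diet replicate 1 it was -0.77 and passed (adjusted p = 0.0223). Proc (protein C), Thbd (thrombomodulin) and Tfpi (tissue factor pathway inhibitor) stood at 0.02, -0.01 and -0.08. The plasminogen group had 5 of 5 measured genes higher and none called. Hrg, a histidine-rich glycoprotein that binds plasminogen and heparin, read 11.50, 11.51 and 11.46 on the regular diet, 11.66, 11.73 and 11.63 on the high-fat diet, and 11.74, 11.79 and 11.75 with extract. It stood at 0.19 ± 0.06 without overlap (limma adjusted p = 0.228). Plg, the plasminogen gene itself, stood at 0.14 ± 0.09 and Vtn, the vitronectin gene, at 0.10 ± 0.08.

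By system, 14 of the 16 measured complement members were higher on the high-fat diet, with a median of 0.25, 3 of them called. Of the 26 coagulation and fibrinolysis members, 19 were higher, with a median of 0.07 and 2 called. Among all genes 0.821% rose, and 3.06% of the brighter genes when fitted alone. Over all genes 50.1% were higher. High-fat and regular-diet arrays did not overlap for 9 of 16 complement members (56.2%) and 7 of 26 others (26.9%), with 15.8% of all genes and 23.7% of the brighter genes. The difference between the systems was not tested.

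Mice given the extract were next set against those given vehicle on the same high-fat diet. None of the 42 members was called (limma), 2 had an unadjusted p under 0.05 (Fcna and Thbd), and 25 were higher and 17 lower with a median of 0.03. Among all genes 0.00451% were called, 0.018% had an adjusted p under 0.10 and 5.98% an unadjusted p under 0.05, and 49.4% were higher. Extract and high-fat arrays did not overlap for 9 members, 6 higher and 3 lower, or 21.4%, with 9.69% of all genes, 4.42% higher and 5.27% lower. Among the brighter genes the share without overlap was 12.9%. The 5 genes that rose on the high-fat diet stayed near their high-fat level. The log2 fold change with extract was -0.01 for Masp1 (95% interval -0.21 to 0.20), 0.01 for Proz (-0.13 to 0.15), 0.05 for F11 (-0.33 to 0.43), -0.13 for C4b (-0.38 to 0.12) and -0.20 for C4bp (-0.50 to 0.10). None of the 5 intervals reaches the estimate of that gene's diet rise with the sign turned. That estimate has its own 95% interval, which starts at 0.35 for C4b and at 0.46 for C4bp. With the sign turned, the extract intervals of C4b and C4bp reach past those limits. Both differences use the same high-fat arrays, and their sizes were not tested against each other. The 3 members lower without overlap were C4bp, Cfb (-0.10 ± 0.07) and Thbd, and the 6 higher were Fcna, F13b, F2, Proc, Plg and Hrg. Neither C4bp nor Cfb passed (limma adjusted p = 0.866 and 0.872, in that order).

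**Figure D4:**
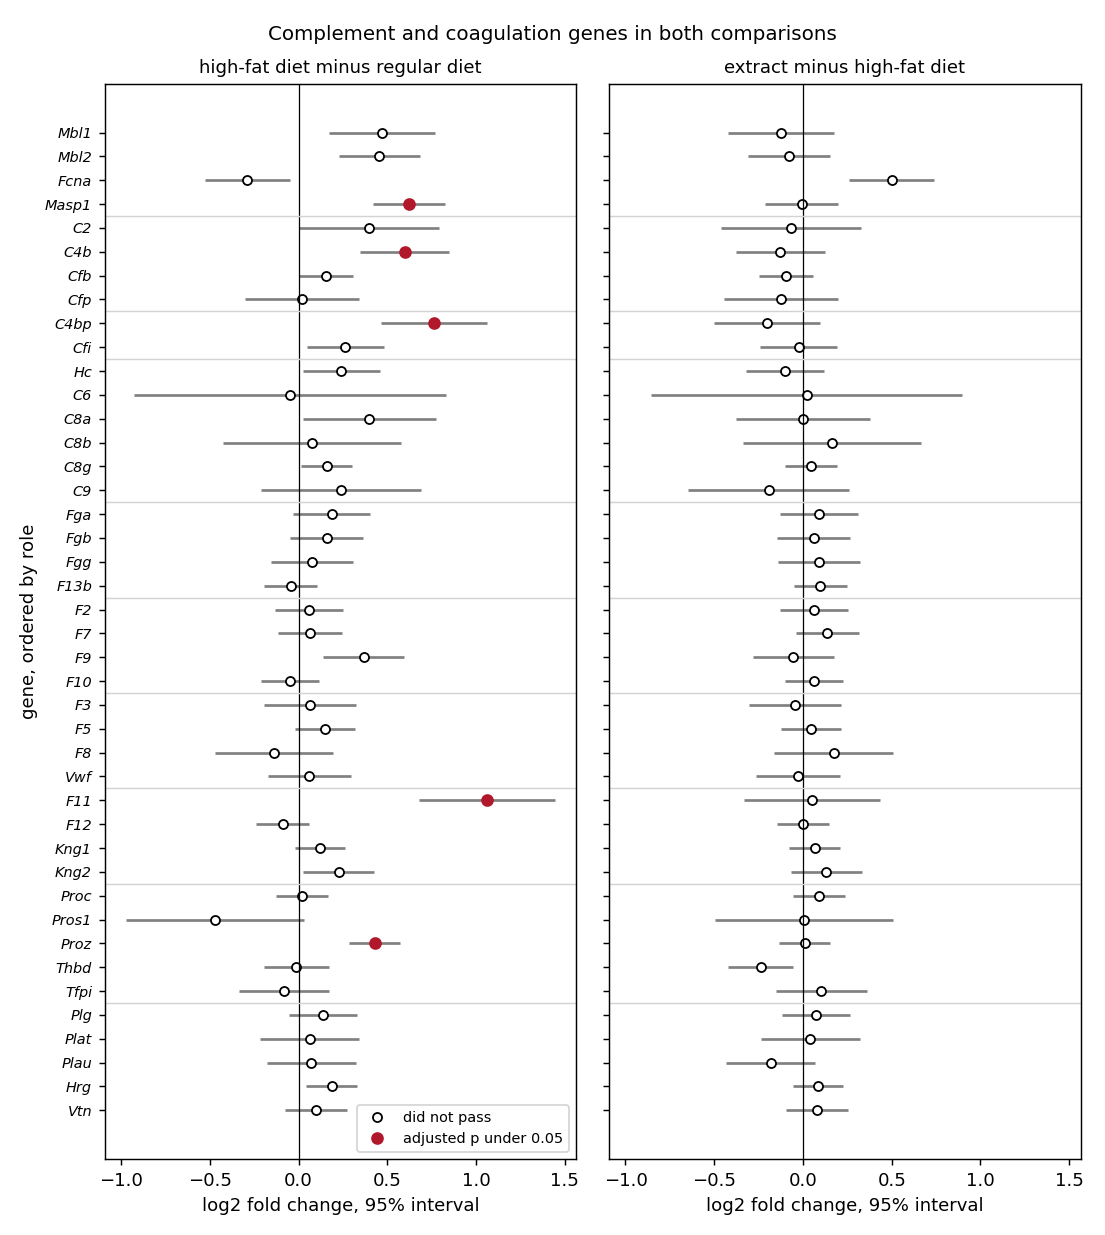
Log2 fold change with its 95% interval for each of the 42 members, high-fat diet minus regular diet (left) and extract minus high-fat diet (right), in order of role; filled points passed at an adjusted p under 0.05. The 5 filled points on the left run from 0.43 (Proz) to 1.06 (F11), and no point is filled on the right.

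Fcna had the smallest p of the members with extract. It read 6.91, 6.98 and 6.91 on the regular diet, 6.72, 6.71 and 6.51 on the high-fat diet, and 7.004, 7.38 and 7.06 with extract. The 3 groups did not overlap, with the high-fat diet lowest and the extract highest. The log2 fold change with extract was 0.50 ± 0.11 (1.41-fold), and it did not pass over all genes (limma adjusted p = 0.422, range 0.201 to 0.839 over its alternatives). Beside it, marker lists of other liver cells are given in the same order of groups. All 10 measured sinusoidal endothelial markers were above 4.74 on every array, with a mean of 7.45 to 7.64 on the regular diet, 7.29 to 7.52 on the high-fat diet and 7.47 to 7.73 with extract, and 9 of the 10 stellate cell markers were, with 6.93 to 7.14, 6.76 to 6.90 and 7.07 to 7.16. The Kupffer cell and macrophage markers (10 of 10 above) stood at 6.40 to 7.03, 6.63 to 6.90 and 6.48 to 6.97. The endothelial and Kupffer cell ranges overlapped between the groups, and the high-fat range of the stellate list lay below both others. Of the 10 endothelial markers, 8 were lower on the high-fat diet and higher with extract, from -0.05 to -0.47 and from 0.10 to 0.56. Lyve1 (0.52 and then -0.18) and Pecam1 (0.07 and then -0.08) ran the other way. Of the 10 stellate markers, 8 were lower on the high-fat diet and 10 higher with extract, so the pattern was not particular to the endothelial list. The 2 differences of each gene, Fcna included, use the same 3 high-fat arrays with opposite sign, so they are not independent. With extract against the high-fat diet, 3 endothelial and 5 stellate markers of 10 had an unadjusted p under 0.05 (limma), with 5.98% of all genes. For extract against the regular diet the medians were 0.06 (endothelial) and 0.09 (stellate). In that comparison 0 and 2 of 10 had an unadjusted p under 0.05 (limma), with 12.1% of all genes. There 0 and 4 of 10 were higher without overlap, with 7% of all genes. None of the endothelial or stellate markers was called, and their part in the Fcna values was not tested.

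**Figure D5:**
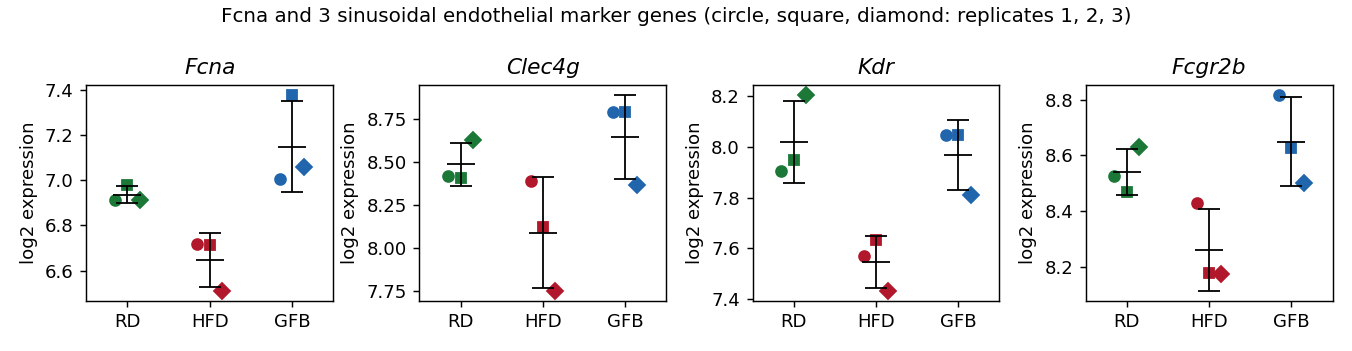
Log2 expression of Fcna and of 3 sinusoidal endothelial markers, chosen after their values were seen, in the regular-diet (RD), high-fat diet (HFD) and extract (GFB) groups; points are arrays (circle, square and diamond for replicates 1, 2 and 3), and bars are the mean and SD of 3. All 4 genes have their lowest mean on the high-fat diet, with extract minus high-fat differences of 0.50 (Fcna), 0.56 (Clec4g), 0.42 (Kdr) and 0.39 (Fcgr2b). Of the 7 markers of that list not drawn, Lyve1 and Pecam1 ran the other way. Stellate markers, of which 10 of 10 were higher with extract than on the high-fat diet, are not drawn.

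Thbd, the endothelial thrombin receptor that turns thrombin toward activation of protein C, read 5.13, 5.11 and 5.16 on the regular diet, 5.21, 4.98 and 5.17 on the high-fat diet, and 4.97, 4.84 and 4.84 with extract. The extract arrays lay below all 6 others. The difference from the high-fat diet was -0.24 ± 0.08 (limma adjusted p = 0.740) at a level close to background. Coagulation and fibrinolysis members were higher with extract in 21 of 26 cases and complement members in 4 of 16, with medians of 0.06 and -0.07, none of them called. Over all genes 49.4% were higher. Genes read on the same arrays are not independent counts, and the difference between the systems was not tested here either. The terminal genes spread less with extract than on the high-fat diet, with ranges of 0.26 for C6 and 0.24 for C9 against 1.98 and 0.95. On the regular diet these ranges were 0.30 and 0.22. C6 and C9 were singled out for their wide high-fat spread, so narrower ranges in the other groups follow in part from that choice. The difference in spread was not tested.

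The extract-treated livers were also set against the regular-diet livers, which served as controls for the high-fat diet too. F11 (1.11 ± 0.17, 2.16-fold, limma adjusted p = 0.0324), Masp1 (0.61 ± 0.09, 1.53-fold, adjusted p = 0.0287) and Proz (0.44 ± 0.06, 1.35-fold, adjusted p = 0.0274) rose, which is 7.14% of the members with 0.261% of all genes rising, 1.15% of the brighter genes, and 0.442% changing in either direction. None fell, with 0.18% of all genes falling, and at an adjusted p under 0.10 the members called were still these 3, with 0.974% of all genes. C4bp (0.56 ± 0.13) and C4b (0.47 ± 0.11) were higher without overlap and did not pass (adjusted p = 0.137 and 0.135), and neither did Hrg (0.27 ± 0.06, adjusted p = 0.133) or Kng2 (0.36 ± 0.09, adjusted p = 0.151). In all 36 members were higher and 6 lower, with a median of 0.19 and with 50.3% of all genes higher. There was no overlap for 22 members that were higher and for 2 that were lower, F12 and Thbd, or 57.1% in all, where 7% of all genes were higher, 7.62% lower and 14.6% either. Among the brighter genes the share without overlap was 21.1%. No member passed without regular-diet replicate 2 or 3, high-fat diet replicate 1 or any 1 extract array, nor in a limma fit of the 6 arrays compared, fits in which 13 to 21 members had an unadjusted p under 0.05, with 9.55% to 11.6% of all genes. Without high-fat diet replicate 2, Proz was the only member to pass, and without replicate 3, Masp1. Without regular-diet replicate 1, 6 passed, with C4bp and Mbl2 higher and Pros1 lower (-0.77, adjusted p = 0.0307) in addition.

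Outside the list, 87 genes of the same systems were measured, in 8 lists of other complement and clotting proteins and of their regulators. Of the 87, 3 rose on the high-fat diet, none fell and 55 were higher, with a median of 0.09. Among all genes 0.821% rose and 0.518% fell (limma, adjusted p under 0.05). Over all genes 50.1% were higher. Apcs, which encodes the pentraxin serum amyloid P, rose by 0.82 ± 0.16 (limma adjusted p = 0.0413), from 8.13, 7.73 and 7.65 to 8.89, 8.62 and 8.48. Colec12, a collectin with scavenger receptor function, rose by 0.63 ± 0.09 (limma adjusted p = 0.0145), from 8.12, 7.93 and 7.99 to 8.49, 8.74 and 8.69. Plgrkt, a cell-surface plasminogen receptor, rose by 0.55 ± 0.10 (limma adjusted p = 0.0369), from 5.18, 4.97 and 5.17 to 5.45, 5.76 and 5.76. With extract Plgrkt read 5.28, 5.23 and 5.25, below all 3 high-fat arrays (-0.40, limma adjusted p = 0.574). None of the 87 was called with extract against either diet, with 0.00451% (high-fat diet) and 0.442% (regular diet) of all genes called.

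Serpina10, the inhibitor for which protein Z is the cofactor, had the smallest p of the inhibitor list, at 0.68 ± 0.14 on the high-fat diet without overlap, and did not pass (limma adjusted p = 0.0576). Ggcx, the carboxylase that makes vitamin K dependent factors active, stood at 0.34 ± 0.07 (limma adjusted p = 0.0604). Cd55, a membrane inhibitor of complement convertases, was lower without overlap (-0.52 ± 0.12, limma adjusted p = 0.0782). Itgax, an integrin subunit gene of complement receptor 4 on myeloid cells, read 3.87, 3.66 and 3.77 on the regular diet and 4.51, 4.39 and 3.99 on the high-fat diet, below the reference level on each of these arrays (0.53 ± 0.13, limma adjusted p = 0.0884). Of the 17 measured liver transcription factor and STAT3 signalling genes none was called, and Nr1h4, which encodes the bile acid receptor FXR, had the smallest p (0.34 ± 0.10, limma adjusted p = 0.172). Colec10, a liver collectin singled out after its values were seen, read 6.73, 6.44 and 6.18 on the high-fat diet and 7.36, 7.32 and 6.97 with extract (0.77 ± 0.14, limma adjusted p = 0.325).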

How the data were processed

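The authors' deposited file gives log2 values, 1 for each probe set. Per the submitters' processing notes they come from RMA in oligo, an R package; versions and genome build are not given in the sources used here. RMA quantile-normalizes the arrays, so a shift shared by most genes would be removed. Of 41345 probe sets, 23521 carried a single gene symbol, 1814 several and 16010 none. Each gene was read from its brightest single-symbol probe set, which left 22180 genes.

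A mean per group was fitted to all 9 arrays with limma 3.58.1 in R 4.3.3 (6 residual degrees of freedom, 3.28 from the prior). Calls needed an adjusted p under 0.05 (two-sided, Benjamini-Hochberg, all genes). An exact permutation test of 3 arrays against 3 cannot go below p = 0.1 and was not used. On simulated data for the high-fat against regular diet comparison (22180 genes), the fit recovered 49.2% of genes changed by 0.5, 95.0% by 1 and 100% by 2 on the log2 scale, and 4.40% of its calls were false. The simulation held 250, 500 and 250 genes changed by these sizes and gave 887 calls, where the real comparison gave 297. Its rates therefore need not hold for the calls reported here.

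Members, role groups and other gene lists were chosen with earlier results of these data known. Values are given per array for called members, for the member of each role group with the smallest p on the high-fat diet and for the smallest p with extract. C6, C8b, C9, C8g, Mbl2, Pros1 and Thbd were chosen after their values were seen. Of other pathway genes, those called and those with the smallest p of a list were named, and Colec10 after its values were seen. The alternatives were trended and robust variances, brighter genes only, averaged probe sets, renewed quantile normalization, array weights, a block for replicate number, a threshold of 0.10, a fit of only the 6 arrays at issue, and omission of single arrays. Symbols were checked against RefSeq GRCm38.p6, which also gave promoters and gene order.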

Additional observations from a re-analysis of the deposited data

How the results depend on the processing

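The counts of called members kept within 1.5 times of 5 (high-fat against regular diet) and of 3 (extract against regular diet) with trended variances, brighter genes only, the mean of probe sets, renewed quantile normalization, array weights and an adjusted p under 0.10, and every called member kept its direction. Leaving out 1 array gave 0 to 7 calls on the high-fat diet, with 0.261% to 2.04% of all genes called, and 0 to 6 with extract against the regular diet, with 0.00902% to 1.2%. A fit of only the 6 arrays compared gave 0 in both, with 0.0676% and 0.153% of all genes called. With the replicate number as a replicate block, 2 members (Masp1 and F11) and 1 member (F11) were called, with 0.906% and 0.307% of all genes. The numbers share no stated origin. Same-numbered arrays of different groups correlated at -0.05 to 0.17 in their deviations from the group means, and 8 of 18 array and group checks had their best match at the same number, so the numbers were not taken as pairs. Extract against the high-fat diet gave 0 called members in every alternative (limma). With 3 arrays a group, log2 changes near 0.5 are often missed, and signal near 4.74, as for Plat, Plau and Thbd, limits what differences can be seen.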

Other observations

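Onecut1, which encodes the liver transcription factor HNF6, was the most variable of the 17 measured regulators in the high-fat and extract groups and was singled out after its values were seen. It read 6.76, 6.62 and 6.20 on the regular diet, 8.55, 6.22 and 9.14 on the high-fat diet, and 9.30, 9.38 and 6.89 with extract. High-fat diet replicate 2, the lowest array for C6, C8b and C9, was also the low array of its group for this gene. Extract replicate 3, low for Onecut1, was not low for those genes. Serpina1e, an alpha-1-antitrypsin gene, read 11.03, 11.12 and 10.61, then 11.66, 10.502 and 10.89, then 11.40, 11.68 and 11.67 in the same order of groups, and near-identical paralogs make the assignment of its signal uncertain. None of the differences between groups of these 2 genes passed (limma adjusted p from 0.353 to 0.939).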
